A study of Mus musculus with 6 samples.

Results

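The genes described here encode the extracellular matrix of a mouse pancreatic cancer cell and the integrins that hold the cell to it, with fibronectin (Fn1) among them. They were chosen by gene symbol: collagen chains, single laminin chains, integrin subunits, matrix metalloproteinases and their tissue inhibitors, thrombospondins, lysyl hydroxylases 2 and 3 and lysyl oxidases, together with Fn1, Sparc, Hspg2, Agrn, Nid1, Tnc and Pxdn. The rule found 54 of the 10616 genes in the count table. It reads symbols only, but it was chosen with earlier results of these data known. One of them, Col4a3bp, matched by its letters only: it encodes a ceramide transfer protein (now Cert1), which leaves 53 matrix and integrin genes. Itga4, Itga5, Itga8, Itgb8, Lama3 and Tnc were not analysed here.

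KPC cells are a mouse pancreatic ductal adenocarcinoma line from a genetically engineered tumor model. The 3 shBrca2 libraries came from cultured KPC cells that carried a lentiviral short hairpin RNA against Brca2, and the 3 shControl libraries from KPC cells that carried a non-targeting hairpin in the same vector, with puromycin selection in both. Live cells were sorted and 3' end RNA-seq libraries were made from their poly(A) RNA. The labels do not say whether the libraries of a group came from separate cultures, so that p-values measure only the spread between these libraries, which may be technical. The comparison addressed how loss of Brca2 expression changes the transcripts of the cancer cell itself.

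Epithelial cells sit on a basement membrane, a sheet in which laminin heterotrimers and a collagen IV network are joined by nidogen and by heparan sulfate proteoglycans such as perlecan and agrin. Fibronectin, by contrast, is assembled into fibrils at the cell surface by integrins, which are heterodimers of an alpha and a beta subunit that link the matrix to the actin cytoskeleton. Carcinoma cells make part of this matrix themselves, and fibroblasts of the tumor stroma make most of the fibrillar collagen.

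Total counts ranged from 1519340 to 2452467 per library, and between 10532 and 10593 genes were detected in each. The targeted gene, Brca2, had 13.6, 10.4 and 12.2 normalized counts (counts divided by the library's size factor) in shBrca2 and 33.3, 43.6 and 32.6 in shControl, and fell by 1.61 on the log2 scale (SE 0.44, DESeq2 likelihood ratio test, adjusted p = 0.029). The first principal component (40.9% of the variance) did not separate the groups, and shControl replicate 3 lay farthest out on it. Of the epithelial markers, Krt18 had between 6034 and 11173 counts per library, and Cdh1 between 604 and 1400, while Epcam had only 3 to 10. Of the 6 epithelial markers, all listed, 1 was called: Krt7, a keratin of ductal epithelium, was higher in shBrca2 (383, 351 and 282 normalized counts against 121, 156 and 161, log2 fold change 1.21, SE 0.20, adjusted p = 2.07e-06). Together the 6 took 0.804% to 0.836% of the counts in shBrca2 and 0.84% to 0.918% in shControl, and their part in the results on matrix genes was not tested. Of 12 fibroblast markers 3 were listed, Thy1, Col1a2 and Postn, with 3 to 22 counts each, and together they took 0.00105% to 0.00137% of the counts in shBrca2 and 0.000897% to 0.00215% in shControl. None of the 6 endothelial markers was listed, and of 7 leukocyte markers only Cd68 was, with 11 to 20 counts.

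Calls needed 3 things: an adjusted p under 0.1, a log2 fold change above 0.5 or below -0.5, and a mean normalized count over all libraries (base mean) above 5. Of the 54 genes, 49 had an adjusted p. The 5 without one, Col16a1, Col8a1, Col6a3, Itgb7 and Loxl1, lay under the base mean of 4.64 at which DESeq2 set its filter. Of the 49, 5 were called and all 5 were lower in shBrca2: Fn1, Lamb3, Hspg2, Itga3 and Thbs1. This was 10.2% of the 49, where 1.27% of all 9997 genes with an adjusted p were called, 0.77% higher and 0.5% lower. With DESeq2 0 genes of the rule were called higher, with 2 higher at an unadjusted p under 0.05 (Nid1 and Itga6), and edgeR also called 0 higher. At that unadjusted threshold 11 of the 54 passed, 9 lower and 2 higher, while 8.33% of all genes passed, 3.88% lower and 4.45% higher. Without shControl replicate 3, which stood apart, 3 were called (Fn1, Hspg2 and Lamb3), and without shBrca2 replicate 3 or shControl replicate 2 only Fn1 was. edgeR, whose filter kept 41 of the 54 genes, called 5, with Thbs3 in place of Itga3.

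The 49 genes with an adjusted p, which include the 5 called lower, lay on both sides of 0. The median log2 fold change of the 49 was -0.08 and that of all tested genes -0.00, with 26 of the 49 below 0 (53.1%, and 50.2% of all tested genes). That median differed with depth: it was -0.21 for the 25 genes with a base mean over 100, of which 15 were below 0, and 0.41 for the 15 with a base mean under 20 and an adjusted p, of which 5 were. Normalized counts of the groups did not overlap in 10 of the 49 with shBrca2 lower and in 9 with shBrca2 higher, where 10.4% and 10.2% of all tested genes did so. The genes of the rule took 0.414%, 0.418% and 0.411% of the counts in shBrca2 and 0.428%, 0.472% and 0.476% in shControl. In bulk libraries, fewer cells that make a transcript and less of it per cell cannot be told apart. Depth also set what could be seen, since 20 of the 54 had a base mean under 20, 9 of them collagens outside collagen IV and 5 integrin subunits.

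**Figure D1:**
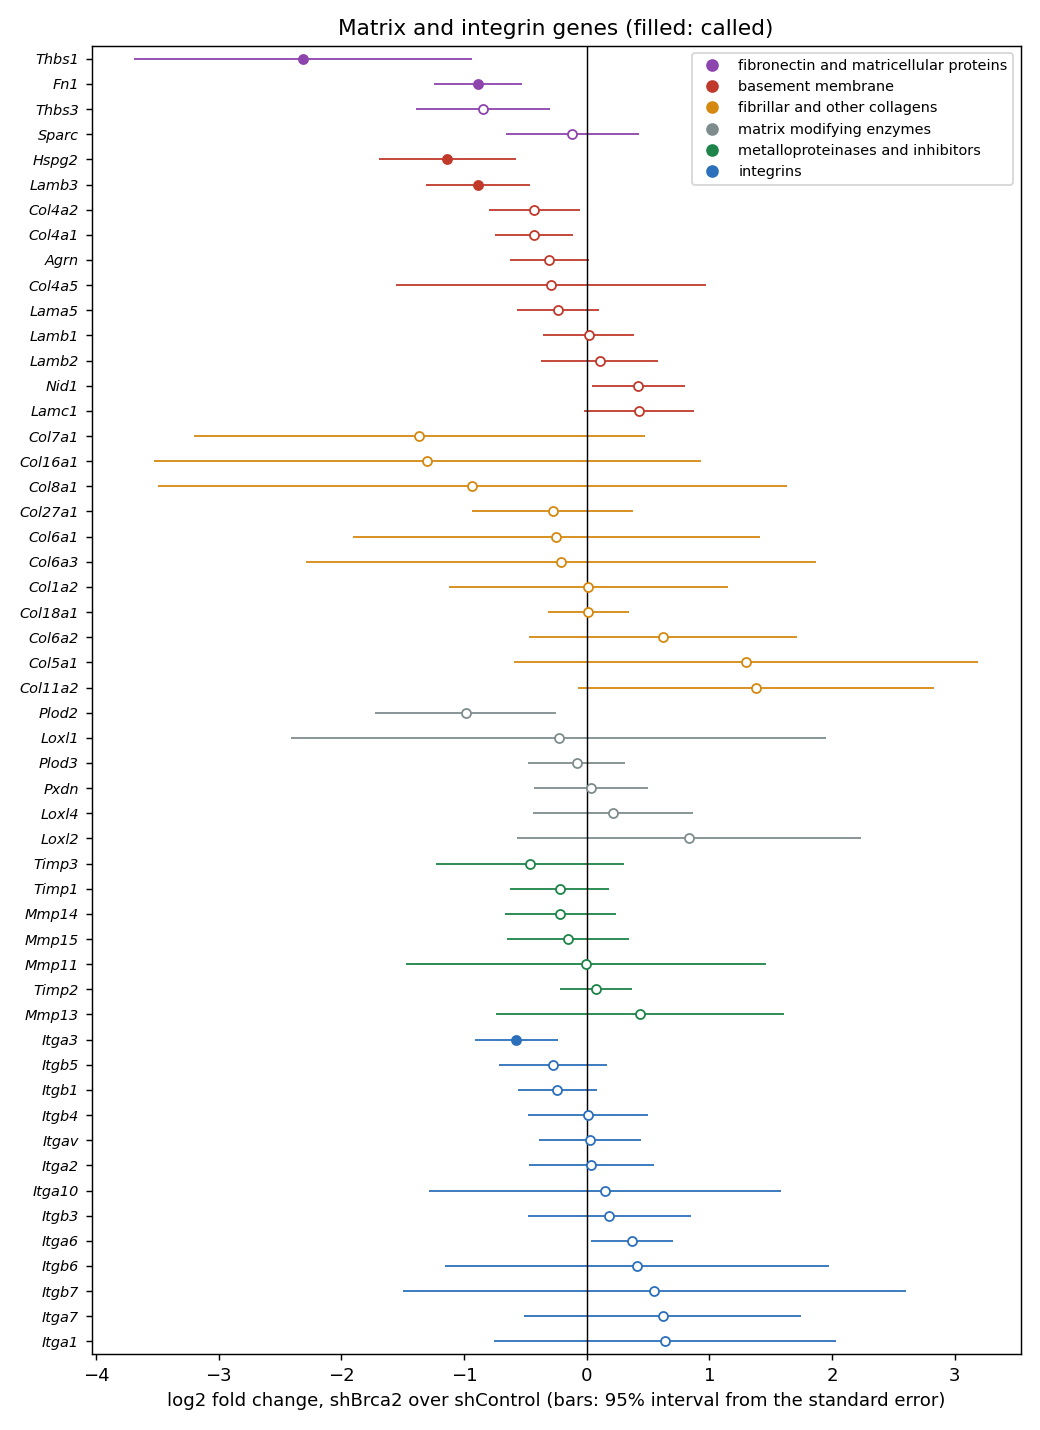
Log2 fold change (shBrca2 over shControl, x axis) of matrix and integrin genes, by role (color), with bars for the 95% interval from the DESeq2 standard error. The 5 filled points are the called genes, all left of 0, and the widest intervals belong to genes with few counts, such as the collagens outside collagen IV.

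Fn1 encodes fibronectin, a glycoprotein that binds integrins through its RGD motif and also binds collagen and heparin (gene at chromosome 1, 71585473 to 71653280, mm10). It had 158, 178 and 178 normalized counts in shBrca2 and 356, 292 and 304 in shControl. Every shBrca2 library lay below every shControl library by a wide margin, with means of 171 ± 11.3 and 317 ± 34.0 (SD, n = 3 each). Fn1 fell by 0.89 on the log2 scale (SE 0.18, adjusted p = 0.000524), to 0.541 of its shControl level. It ranked 5 by p among the 50 genes called lower, and it was called in all 6 fits that left out one library (adjusted p from 0.00324 to 0.0133).

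Thbs1, which encodes thrombospondin 1, a secreted glycoprotein that activates latent TGF-beta and inhibits angiogenesis, had 1.36, 4.73 and 4.35 normalized counts in shBrca2 and 22.2, 12.6 and 19.8 in shControl. The groups were far apart, but the raw counts behind them were only 1, 5 and 5 against 22, 15 and 20. Thbs1 fell by 2.31 on the log2 scale (SE 0.70, adjusted p = 0.0678), the largest change among the 49 in either direction. Of the 4 fits without one library that gave Thbs1 an adjusted p, 0 called it (0.145 to 0.31), and the fits without shBrca2 replicate 2 or shControl replicate 3 gave it none.

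Thbs3, a thrombospondin that assembles as a pentamer, had 49.0, 36.9 and 52.2 normalized counts in shBrca2 and 82.9, 83.9 and 81.1 in shControl. Its groups did not overlap either, but its log2 fold change of -0.85 (SE 0.28, adjusted p = 0.153) did not pass the threshold, while edgeR's quasi-likelihood test called it (adjusted p = 0.0919). Sparc, a matricellular protein that binds collagen, had 128, 114 and 148 against 212, 94.8 and 118, with the shControl libraries spread on both sides of the shBrca2 ones (log2 fold change -0.12, 95% interval -0.66 to 0.42). Of these 4 genes, Fn1 and Thbs1 were thus called lower, and the log2 fold changes of all 4 were below 0. Over all tested genes, 0.5% were called lower and 50.2% lay below 0.

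**Figure D2:**
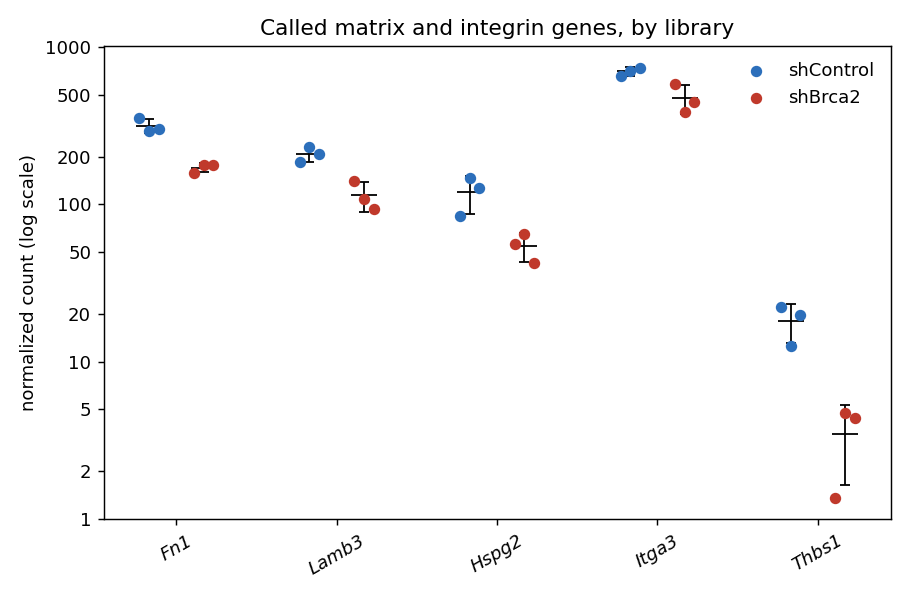
Normalized counts (y axis, log scale) of the 5 called genes in the 3 shControl (blue) and 3 shBrca2 (red) libraries, with the mean and SD. In each gene every shBrca2 library lies below every shControl library, from Itga3 (389 to 580 against 655 to 739) down to Thbs1 (1.36 to 4.73 against 12.6 to 22.2).

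Of the 12 basement membrane genes, 2 were called lower, Hspg2 and Lamb3, and 0 higher (16.7% called, where 1.27% of all tested genes were). Hspg2 encodes perlecan, the large heparan sulfate proteoglycan of basement membranes, and Lamb3 the beta 3 chain of a laminin found where epithelia are anchored. The bases before the start of both genes, and of the called integrin gene Itga3, are shown because these are the called genes with a promoter in the RefSeq table used (GRCm38.p6, the mm10 build), and they differ in base composition: 70.2% G and C for Hspg2, 58.8% for Lamb3 and 62.5% for Itga3. Capitals mark GGGCGG, the SP1 box read on either strand, of which Hspg2 holds 5, Itga3 2 and Lamb3 0. The Lamb3 stretch (chr1:193301744-193301993, plus strand) lies inside the extent of a longer Lamb3 transcript. The Hspg2 stretch is chr4:137468553-137468750 (plus strand) and that of Itga3 is chr11:95076845-95076964 (minus strand, written 5' to 3').
Hspg2: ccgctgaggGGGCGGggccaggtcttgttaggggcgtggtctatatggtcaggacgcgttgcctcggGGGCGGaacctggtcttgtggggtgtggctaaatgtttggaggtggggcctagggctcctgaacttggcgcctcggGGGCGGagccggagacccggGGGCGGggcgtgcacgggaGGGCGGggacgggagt
Lamb3: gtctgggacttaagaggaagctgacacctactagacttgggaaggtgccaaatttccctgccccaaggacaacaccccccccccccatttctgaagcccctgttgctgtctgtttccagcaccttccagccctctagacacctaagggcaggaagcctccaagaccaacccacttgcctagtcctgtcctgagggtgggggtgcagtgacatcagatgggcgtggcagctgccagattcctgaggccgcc
Itga3: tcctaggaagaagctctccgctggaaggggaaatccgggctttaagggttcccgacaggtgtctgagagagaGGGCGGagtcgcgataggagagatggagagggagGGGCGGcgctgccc

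Across the 49 promoter windows of 43 genes of the rule (250 bases before to 50 after each start), 71.4% held GGGCGG on either strand, as did 63.9% of windows of all genes in the count table and 35.7% of all 32851 windows. CCAAT was in 32.7% of the windows of the rule and 37.9% of those of the count table, TATAAA in 4.08% and 7.02%, the AP-1 motif TGANTCA in 6.12% and 5.1%, and the TEAD motif GGAATG in 14.3% and 12.1%. These are matches of letters only and were not tested.

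Hspg2 had 55.8, 65.2 and 42.6 normalized counts in shBrca2 and 83.9, 148 and 127 in shControl. The highest shBrca2 library lay below the lowest shControl library, although shControl replicate 1 was far under the other two. Hspg2 fell by 1.14 on the log2 scale (SE 0.28, adjusted p = 0.0136), from a mean of 119 ± 32.5 to 54.6 ± 11.3. The call was lost without shBrca2 replicate 1 or 3 or without shControl replicate 2 (adjusted p 0.112, 0.319 and 0.382), while the log2 fold change stayed between -1.34 and -0.95.

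Lamb3 had 142, 109 and 93.1 normalized counts in shBrca2 and 187, 231 and 211 in shControl, again without overlap. It fell by 0.89 on the log2 scale (SE 0.22, adjusted p = 0.00988), from 210 ± 22.3 to 114 ± 24.8. It lost the call without shBrca2 replicate 3 or shControl replicate 2 (adjusted p 0.213 and 0.248).

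The other laminin chains went different ways. Lama5, the alpha 5 chain of the laminins of mature epithelial basement membranes, had 580, 651 and 602 normalized counts in shBrca2 and 567, 803 and 788 in shControl (log2 fold change -0.24, adjusted p = 0.798). Lamc1, the gamma 1 chain of most laminins, was chosen after its values were seen: it had 203, 231 and 197 in shBrca2 and 105, 176 and 187 in shControl, so that its groups did not overlap with shBrca2 higher (log2 fold change 0.43, SE 0.23, adjusted p = 0.608). Lamb1 and Lamb2, the beta 1 and beta 2 chains, also chosen after their values were seen, had log2 fold changes of 0.02 (95% interval -0.35 to 0.39) and 0.11 (-0.37 to 0.58). The ratio of Lamb3 to Lamb1 counts, formed after both were seen and therefore a description, was 0.608, 0.5 and 0.33 in shBrca2 and 0.752, 0.873 and 1.0 in shControl. This ratio is formed within a library, so that no size factor enters it, and the groups did not overlap.

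Col4a1 and Col4a2 encode the alpha 1 and alpha 2 chains that form the common collagen IV trimer. The genes lie head to head on chromosome 8, Col4a1 at 11198423 to 11312889 on the minus strand and Col4a2 at 11312805 to 11449287 on the plus strand, and their extents share 85 bases. Part of the shared stretch (chr8:11312805-11312826, plus strand) is shown for its one SP1 box, in capitals, which lies between the starts of both genes.
Col4a1-Col4a2: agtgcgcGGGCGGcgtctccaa

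Col4a1 had 316, 278 and 274 normalized counts in shBrca2 and 393, 387 and 385 in shControl. Col4a2 had 443, 382 and 501 in shBrca2 and 718, 609 and 457 in shControl. The groups did not overlap for Col4a1 and overlapped for Col4a2, through a low shControl replicate 3. The log2 fold change was -0.43 for both (SE 0.16 and 0.19), with unadjusted p of 0.00849 and 0.0245, and neither was called (adjusted p 0.291 and 0.45). The ratio of Col4a1 to Col4a2 counts was 0.714, 0.728 and 0.547 in shBrca2 and 0.547, 0.635 and 0.842 in shControl, with no separation of the groups.

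Nid1 encodes nidogen 1, which bridges laminin and collagen IV. It had 195, 199 and 200 normalized counts in shBrca2 and 147, 161 and 135 in shControl. Here the groups did not overlap in the direction opposite to Hspg2 and Lamb3, with a log2 fold change of 0.42 (SE 0.19, unadjusted p = 0.0288) that was not called (adjusted p = 0.482). Agrn, the gene of the proteoglycan agrin, chosen after its values were seen, had 293, 288 and 263 against 336, 343 and 363 (log2 fold change -0.31, adjusted p = 0.613). The 12 genes of the basement membrane ran from -1.14 to 0.43 with a median of -0.27, 8 of them below 0, and took 0.136%, 0.13% and 0.134% of the counts in shBrca2 and 0.15%, 0.167% and 0.157% in shControl.

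**Figure D3:**
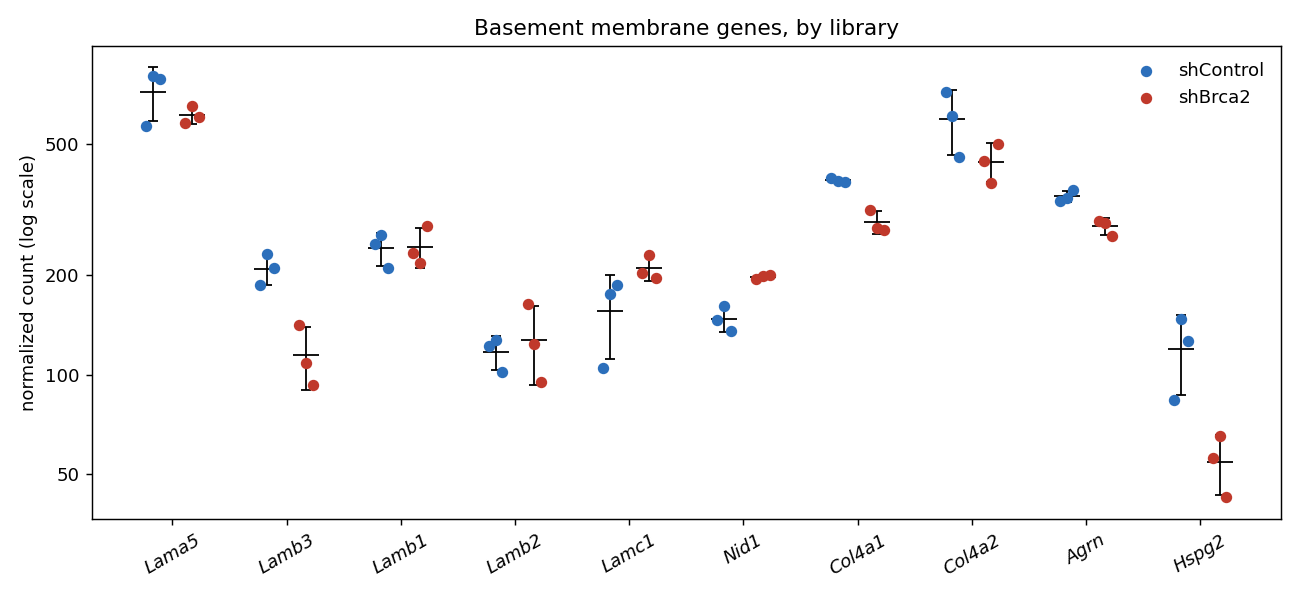
Normalized counts (y axis, log scale) of basement membrane genes in the 3 shControl (blue) and 3 shBrca2 (red) libraries, with the mean and SD. Hspg2 and Lamb3 are lower in shBrca2 and called, Col4a1 is lower without a call, and Nid1 and Lamc1 are higher in every shBrca2 library than in any shControl library without a call.

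Of the 13 integrin subunits analysed, 12 had an adjusted p, and 1 was called, Itga3 (8.33%, where 1.27% of all tested genes were called). It encodes the alpha 3 subunit, which pairs with beta 1 to bind laminins with alpha 3 or alpha 5 chains (gene at chromosome 11, 95044475 to 95076844, minus strand). It had 580, 389 and 449 normalized counts in shBrca2 and 655, 709 and 739 in shControl, without overlap. Itga3 fell by 0.57 on the log2 scale (SE 0.17, adjusted p = 0.0827), near both thresholds, and edgeR did not call it (adjusted p = 0.15). Without one library it was called in 2 of 6 fits (adjusted p from 0.00531 to 0.517), and the call was lost without shBrca2 replicate 2 or 3 or without shControl replicate 2 or 3.

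Itga6 encodes another alpha subunit that binds laminin, which pairs with beta 4 in hemidesmosomes or with beta 1. It had 613, 675 and 726 normalized counts in shBrca2 and 421, 536 and 603 in shControl. Its groups did not overlap either, but with shBrca2 higher, and its log2 fold change of 0.37 (SE 0.17, unadjusted p = 0.0304) was not called (adjusted p = 0.489). The ratio of Itga3 to Itga6 counts, formed after both were seen, was 0.947, 0.576 and 0.619 in shBrca2 and 1.55, 1.32 and 1.22 in shControl. Itga3 counts exceeded Itga6 counts in every shControl library and fell short of them in every shBrca2 library. Each gene alone already separated the groups, in opposite directions, so that this ratio is a description and no separate result.

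Itgb4, the beta 4 partner of alpha 6, had 172, 230 and 124 normalized counts in shBrca2 and 130, 205 and 186 in shControl, with overlapping groups (log2 fold change 0.01, 95% interval -0.48 to 0.50). Itgb1, the beta 1 subunit shared by most matrix receptors, had 473, 419 and 499 in shBrca2 and 629, 512 and 501 in shControl. Those groups just failed to overlap (log2 fold change -0.24, SE 0.16, adjusted p = 0.772).

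The subunits that pair into receptors for fibronectin and other RGD proteins showed no call. Itgav, the alpha v subunit, had 193, 176 and 225 normalized counts in shBrca2 and 150, 206 and 228 in shControl (log2 fold change 0.03, 95% interval -0.39 to 0.44). Of its beta partners, Itgb5 had a log2 fold change of -0.28 (95% interval -0.72 to 0.17), Itgb3 of 0.18 (-0.48 to 0.85) and Itgb6, with a base mean of only 6.24, of 0.41 (-1.15 to 1.98). The intervals of Itgav and Itgb1 (-0.56 to 0.08) exclude a fall as large as the fitted one of Fn1, and those of Itgb3 and Itgb5 do so as well. The interval of Itgb6 does not. The fall of Fn1 has an interval of its own, -1.24 to -0.53, which overlapped those of Itgb1, Itgb5 and Itgb6. Differences between these fold changes were not tested. The ratio of Fn1 to Itgb1 counts, also formed after the values were seen, was 0.334, 0.424 and 0.356 in shBrca2 and 0.565, 0.57 and 0.606 in shControl.

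The collagen receptors alpha 2 and alpha 1 are encoded by Itga2 and Itga1, neighbors on chromosome 13 that lie 25978 bases apart. Itga2 had 143, 142 and 138 normalized counts in shBrca2 and 115, 97.3 and 201 in shControl, where shControl replicate 3 alone lay above the shBrca2 libraries (log2 fold change 0.04, 95% interval -0.47 to 0.55). Itga1, with a base mean of 8.11, gave a log2 fold change of 0.64 (95% interval -0.76 to 2.03). Of the 12 subunits with an adjusted p, 9 had a log2 fold change above 0 and 3 below, where 50.2% of all tested genes lay below 0. None of the 9 was called. Among them, Itgb4, Itgav and Itga2 lay close to 0, and Itga1 and Itgb6 had few counts.

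**Figure D4:**
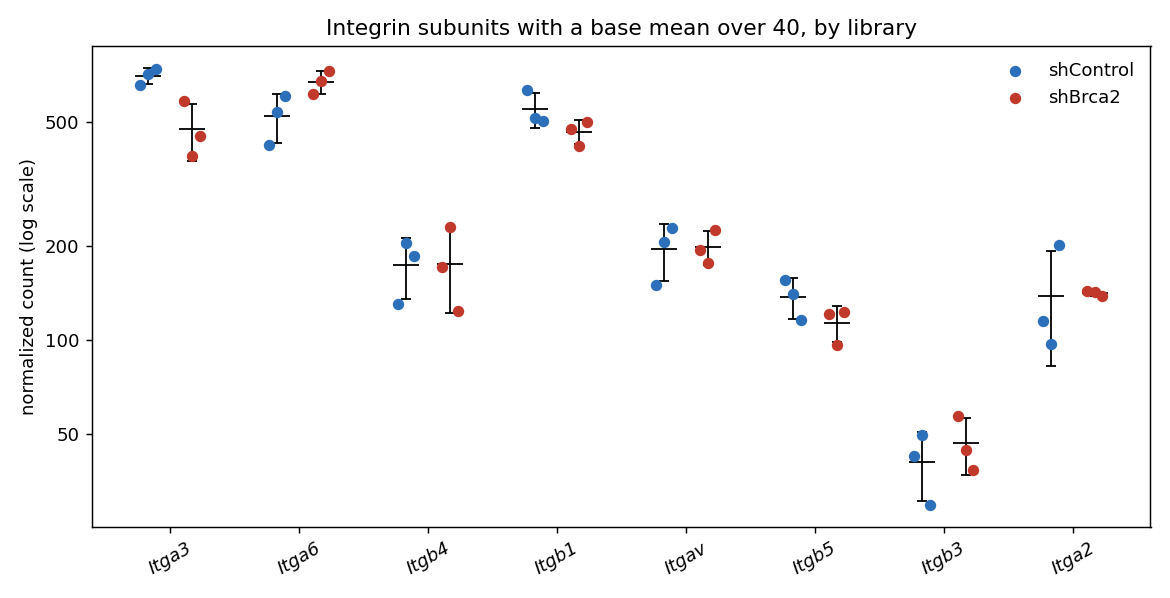
Normalized counts (y axis, log scale) of the 8 integrin subunits with a base mean over 40 in the 3 shControl (blue) and 3 shBrca2 (red) libraries, with the mean and SD. Itga3 is lower and Itga6 higher in every shBrca2 library, and among the other 6 the groups overlap except for Itgb1.

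Of the 11 collagens outside collagen IV, 0 were called by DESeq2 or edgeR and 0 passed an unadjusted p under 0.05 with DESeq2. Of the 11, 9 had a base mean under 20, and the intervals of all 9 took in a change of 2-fold. Col18a1, the source of endostatin and a basement membrane zone collagen, was the exception in depth, with 932, 972 and 696 normalized counts in shBrca2 and 756, 949 and 867 in shControl (log2 fold change 0.01, 95% interval -0.32 to 0.35). Col27a1, a fibrillar collagen of cartilage, had 36.8, 46.3 and 34.8 against 35.4, 51.2 and 56.4 (log2 fold change -0.28, 95% interval -0.93 to 0.38). Col1a2, which fibroblasts express strongly and which also served as one of the fibroblast markers, had 8 to 22 counts in a library.

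Of the 6 enzymes that modify or crosslink matrix proteins, 0 were called by DESeq2 or edgeR, and 1, Plod2, passed an unadjusted p under 0.05. Plod2, the lysyl hydroxylase that acts on collagen telopeptides, had 17.7, 22.7 and 23.5 normalized counts in shBrca2 and 37.4, 47.8 and 42.5 in shControl. The groups did not overlap, yet the log2 fold change of -0.99 (SE 0.38, unadjusted p = 0.0082) was not called (adjusted p = 0.287). Its relative Plod3 had 207, 190 and 146 against 180, 195 and 197 (log2 fold change -0.08, 95% interval -0.48 to 0.31), and the peroxidasin gene Pxdn, whose product crosslinks collagen IV, 80.4, 105 and 98.3 against 89.9, 91.4 and 96.9 (0.04, -0.43 to 0.50). Plod3 and Pxdn thus overlapped between the groups. Of the 5 enzymes with an adjusted p, the groups did not overlap in 1 with shBrca2 lower (Plod2) and in 2 with shBrca2 higher. Over all tested genes these shares were 10.4% and 10.2%.

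Of the 7 metalloproteinases and tissue inhibitors, 0 were called by DESeq2 or edgeR and 0 passed an unadjusted p under 0.05 with DESeq2. In all 7 the groups overlapped, where 20.6% of all tested genes did not overlap. Timp2, an inhibitor that also takes part in activating proMMP2, had 1131, 1380 and 1329 normalized counts in shBrca2 and 1070, 1282 and 1302 in shControl (log2 fold change 0.07, 95% interval -0.22 to 0.37). Timp1 had 143, 169 and 147 against 195, 149 and 192 (-0.22, -0.62 to 0.18). For the 2 inhibitors a change of 2-fold in either direction lay outside the interval. The 7 genes ran from -0.46 to 0.44 on the log2 scale.

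Matrix and adhesion genes outside the symbol rule were taken from lists of collagen processing, other matrix glycoproteins, proteoglycans, matrix proteases and their inhibitors, and integrin partners. The table held 99 such genes, of which 93 had an adjusted p, and 5 were called, 4 lower and 1 higher in shBrca2 (5.38%, where 1.27% of all tested genes were called). The lists were chosen with earlier results of these data known, and these shares were not tested. Fbln2, the basement membrane and elastic fiber glycoprotein fibulin 2, had 229, 226 and 228 normalized counts against 355, 415 and 359, and fell by 0.73 on the log2 scale (SE 0.17, adjusted p = 0.00475). Every shBrca2 library lay below every shControl library by a wide gap.

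Ltbp4, which binds latent TGF-beta to the matrix, had 69.5, 50.1 and 27.8 normalized counts against 91.9, 107 and 123 and fell by 1.15 (SE 0.31, adjusted p = 0.0253). Zyx, the gene of the focal adhesion protein zyxin, had 279, 187 and 192 against 342, 432 and 315 and fell by 0.73 (SE 0.21, adjusted p = 0.0417). Tns4, a tensin that binds the tail of integrin beta 1, was the one called higher, with 62.7, 57.7 and 61.8 against 24.2, 25.2 and 24.7 (log2 fold change 1.29, SE 0.33, adjusted p = 0.0141). By list, the calls were 0 of 16 collagen processing genes (2 at an unadjusted p under 0.05), 2 of 21 glycoproteins (Fbln2 and Ltbp4), 0 of 9 proteoglycans (also 2), 1 of 17 proteases and inhibitors and 2 of 30 adhesion genes (Zyx and Tns4). edgeR called 4, among them Fbln2, Tns4 and the collagen processing gene Fkbp10. Without shBrca2 replicate 3 only Fbln2 was called, and without shControl replicate 2 there were 2 calls, Fbln2 among them.

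Among the 2 genes with the smallest p of each list, those not called were the collagen folding factor Fkbp10 (log2 fold change -1.16, adjusted p = 0.163) and the procollagen C-proteinase enhancer Pcolce2 (-0.59, 0.275), the proteoglycans glypican 1, Gpc1 (-0.74, 0.155), and aggrecan, Acan (-0.71, 0.157), and, with a value above 0, the serine protease Tmprss2 (0.53, 0.418). The groups did not overlap for the first 4, with shBrca2 lower, as for 10.4% of all tested genes. These genes were picked by their p, so that this separation is no separate result. The 9 proteoglycans had a median log2 fold change of -0.53, 7 of them below 0, where the median of all tested genes was -0.00.

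The strand setting of the counting is not given in the sources used here, and 41 of the 54 genes overlap a gene on the opposite strand and 14 one on the same strand in GENCODE vM39. Among the called genes, Fn1 overlaps Apol7d, Thbs1 Gm13986 and Gm29233, Hspg2 Ldlrad2, Itga3 Gm57362 and Lamb3 Hsd11b1 and G0s2, all on the opposite strand. On the same strand, Hspg2 overlaps Mir7018 and Lamb3 overlaps 4930570N18Rik. The counts of these called genes are uncertain to that extent.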

How the data were processed

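RNA from sorted live KPC cells was profiled as 3' end libraries made by a variation of MARS-seq. The authors deposited raw counts per gene symbol, not normalized or pooled. The submitters' processing notes name bcl2fastq, cutadapt, STAR 2.4.2a, HTSeq, DESeq2 and the mm10 build. The annotation, the strand setting and whether molecular identifiers were used are not given in the sources used here, and errors computed from counts cover counting error and library spread only. In its highest library each listed gene reached 6 counts or more.

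All 10616 genes were fitted with DESeq2 1.42.0 in R 4.3.3 (median-of-ratios size factors, likelihood ratio test of group, Benjamini-Hochberg adjustment over all genes). Test and thresholds follow the study's methods, and fold changes were not shrunken. Intervals are 95% and come from the standard error. The pipeline was tested on simulated counts. Alternatives included edgeR 4.0.16 (TMM, filterByExpr) and sva 3.50.0.

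The genes and lists were chosen with earlier results of these data known. Genes named were Brca2, called genes, genes with an unadjusted p under 0.05, the 2 with the highest mean normalized count in each role, integrin subunits that bind fibronectin, laminin or collagen, Lamb3, Col4a1 and Col4a2, and, of the other lists, the called genes and the 2 with the smallest p. Some genes that meet this rule are not reported here by name, but they stay in the fits and counts. Others are marked in the text or named for having no adjusted p. Gene positions and promoters came from RefSeq (GRCm38.p6) and overlaps from GENCODE vM39 symbols.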

Additional observations from a re-analysis of the deposited data

How the results depend on the processing

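Each library was left out in turn, and 9 alternatives kept all libraries: edgeR, Wald statistics in DESeq2, size factors from TMM or from total counts, at least 10 counts in 3 libraries, no independent filtering, a stricter adjusted p of 0.05, no minimum fold change and 1 surrogate variable. Fn1 was called under all 15. Of the matrix and integrin genes, 5 were called; an adjusted p under 0.05 left 3 (Fn1, Hspg2 and Lamb3), all lower. With 1 surrogate variable 7 were called, of which 2 were higher (Itga6, log2 fold change 0.51, adjusted p = 0.0877, and Lamc1), and Col4a2 was called lower (-0.59, adjusted p = 0.0293). Leaving out one library gave 1 to 4 called genes, all lower, and 0 higher: without shBrca2 replicate 3 or shControl replicate 2 only Fn1 was called, without shControl replicate 3 or shBrca2 replicate 2 there were 3 (Fn1, Hspg2 and Lamb3), without shBrca2 replicate 1 there were 3 (Fn1, Itga3 and Lamb3). The matrix and adhesion genes outside the rule gave 1 to 7 called genes, 0 to 1 higher and 1 to 6 lower, against 5, 1 and 4: without shBrca2 replicate 3 only Fbln2 was called, without shControl replicate 2 there were 2, Fbln2 among them. All genes gave 47 to 140 calls, 32 to 98 higher and 15 to 45 lower, against 127, 77 and 50: 81 without shBrca2 replicate 1, 47 without shBrca2 replicate 3 and 55 without shControl replicate 2. Fewer libraries entered these fits, and no other cause was tested.

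For the named genes of the symbol rule, 309 of 339 recomputed fold changes kept their direction and their side of the threshold. Most of these genes were not called with all libraries, so that the figure says little about the calls. Of the other fold changes, 14 lost a call, all of Hspg2, Itga3, Lamb3 or Thbs1, 3 gained one and 13 turned sign. A further 21 had no adjusted p, among them Thbs1 under TMM factors, total counts, the count filter and 1 surrogate variable. Brca2 was called in 3 of the 6 fits without one library (adjusted p from 0.0684 to 0.371). Log2 fold changes that turned sign when one library was left out lay near 0 in the fit of all libraries: Col18a1 (-0.08 to 0.15), Itga2 (-0.16 to 0.41), Itgav (-0.13 to 0.15), Itgb4 (-0.25 to 0.21), Plod3 (-0.19 to 0.056), Pxdn (-0.046 to 0.13), Sparc (-0.34 to 0.30) and Timp2 (-0.014 to 0.15). No scaling moved the median of all genes by over 0.1.

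No paired analysis was possible because no replicate number in the labels is common to both groups, and no batch is named. Depth limited the low genes: 20 of the 54 had a base mean under 20, and a call was out of reach for the 5 without an adjusted p. Col5a1 had an adjusted p, but its base mean of 4.88 also kept it from a call.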
